A study of Mus musculus with 5 samples.

Results

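The primary cilium genes examined here are 44 mouse genes for intraflagellar transport, its motors, the BBSome, the transition zone and the basal body, listed by name with earlier results of these data known. Of these, 41 had at least 1 probe set annotated with their symbol alone, 69 probe sets in all, among 18193 genes so represented. For genes with several, the brightest probe set on average stood for the gene, and 39 genes passed a filter on low signal (a mean of at least 100 over the 5 arrays). Arl6, Arl13b and Rpgrip1l had no such probe set and are not reported here. The study hybridised RNA from 4 mouse medulloblastomas, tumours of the cerebellum, and from 1 P5 mouse cerebellum (P5 read as postnatal day 5) to Affymetrix arrays. Its title concerns tumours from mice mutant for Cxcr6 and a Smoothened inhibitor, but the labels of single arrays give no genotype, strain, treatment or tumour age, so a difference between tumours and cerebellum cannot be told apart from one in age or genotype. Medulloblastomas 1 and 2 carry the title prefix ken, and the remaining arrays, cerebellum included, carry hmk; what the prefix stands for is not given in the sources used here.

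The primary cilium is a single, non-motile projection of the cell surface, built on a centriole that serves as its basal body. Kinesin-II motors carry trains of complex B proteins toward the tip, cytoplasmic dynein carries trains with complex A proteins back, and the transition zone at the base gates what enters the membrane. Smoothened acts inside the cilium, so granule neuron precursors of the cerebellum, from which Hedgehog-driven medulloblastomas arise, need it to respond to Sonic hedgehog. In mice, loss of Kif3a or Ift88 from these precursors impairs their expansion.

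Many promoters of ciliary genes hold an X-box, the palindrome-like site that RFX transcription factors bind. RefSeq promoters (GRCm38.p6, 250 bases before to 50 after each gene's start, 300 in all) were matched by symbol for 40 of the 44 genes. The X-box was searched on both strands as GTNNCCNNGGNAAC. It was found in 8 of the 40 genes (20%), Ift57, Bbs1, Bbs4, Bbs7, Tctn1, Tctn2, Mks1 and Nphp4, against 1.49% of all 27025 genes with a promoter. A shorter core, GTTGCCA, which can lie within an X-box and does so in Mks1 and Bbs1, was found in 10 of the 40 (25%) against 5.02% of all genes. Both shares are descriptions of letters and show no binding. The 5 X-boxes that lie wholly before the gene's start are shown because the list of genes was not drawn up by promoter sequence. Each is written 5′ to 3′ on the strand of its gene, with the X-box in capitals and bases beside it from the same window.

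Bbs7: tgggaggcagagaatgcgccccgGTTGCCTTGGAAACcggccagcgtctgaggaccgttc

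Nphp4: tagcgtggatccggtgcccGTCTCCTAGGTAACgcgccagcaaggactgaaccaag

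Tctn2: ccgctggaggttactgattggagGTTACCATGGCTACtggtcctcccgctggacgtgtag

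Mks1: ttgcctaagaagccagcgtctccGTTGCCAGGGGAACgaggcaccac

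Ift57: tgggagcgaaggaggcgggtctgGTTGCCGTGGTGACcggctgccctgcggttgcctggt

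The stretches lie at chr3:36613474-36613533 (Bbs7, minus strand), chr4:152477892-152477947 (Nphp4, plus strand), chr5:124598664-124598723 (Tctn2, plus strand), chr11:87853168-87853214 (Mks1, plus strand) and chr16:49699184-49699243 (Ift57, plus strand), all before the RefSeq start of the gene. In Tctn2 and Ift57 the match is to the letters on the opposite strand. The 8 genes with an X-box were all measured, 22.2% of the 36 measured members with a promoter, against 1.94% of 11333 such genes. Their log2 differences between tumours and cerebellum ran from -1.004 to 0.057, with a median of -0.17. The 28 other measured members with a promoter had a median of -0.12. Over all measured genes with a promoter the medians were -0.03 with an X-box and -0.06 without.

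None of the 39 cilium genes was called. For most of them the mean difference between the medulloblastomas and the P5 cerebellum was under 1 on a log2 scale. Differences are on the scale of log2(signal + 32), tumour mean minus cerebellum, with the standard error of limma's fit, and a call is a Benjamini-Hochberg adjusted p under 0.05 over all 14109 genes tested, of which 0.489% were called. At an unadjusted p under 0.05, limma gave 0 members higher and 3 lower (7.69% of 39), against 15.2% of all genes in either direction. The mean difference was within 1 of 0 on the log2 scale in 37 of 39 members, against 85.3% of all genes, and its median was -0.12 over the members and -0.07 over all genes. Members ran from -1.16 (Ift88) to 0.71 (Bbs2). None lay at least 2-fold above the cerebellum in each tumour, as 2.01% of all genes did, or at least 2-fold below, as 2.63% did. A missed threshold does not show equality: the 95% intervals of single members had half-widths between 0.57 and 1.68, and 36 of the 39 intervals held 0.

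**Figure D1:**
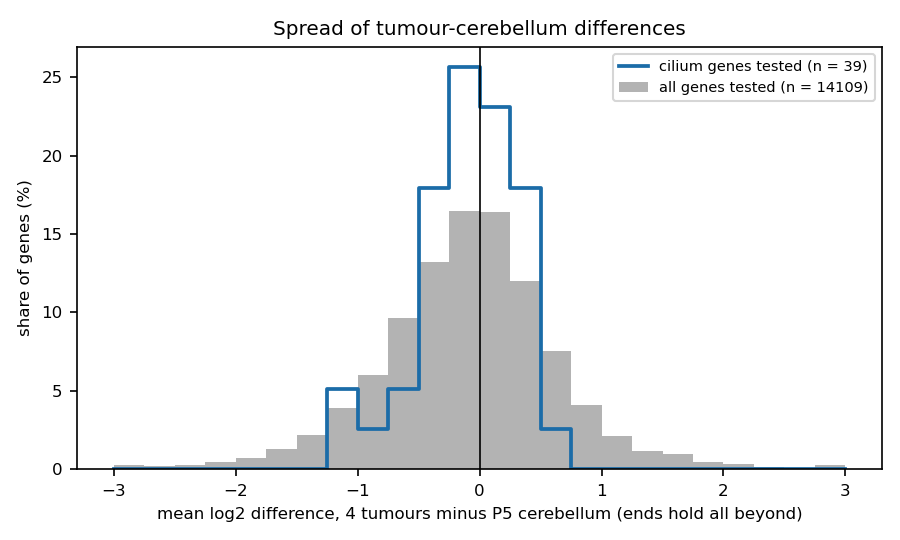
Share of genes (vertical axis, percent) by mean log2 difference between 4 medulloblastomas and 1 P5 cerebellum (horizontal axis), as a line for the 39 cilium genes and as bars for all 14109 genes tested. The cilium genes lie between -1.16 and 0.71, whereas all genes reach past the ends of the axis.

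The cerebellum lay outside the range of the tumours for 15 of the 39 members. All 4 tumours were above it for 5 genes (12.8% of members, 25.1% of all genes): Ift20, Ift140, Ift122, Bbs2 and Bbs9. All 4 were below it for 10 genes (25.6% of members, 30.8% of all genes): Ift88, Ift52, Ttc21b, Kif3b, Kifap3, Bbs1, Tulp3, Tctn1, Tctn2 and B9d2. Neither share exceeds that of all genes. The split depends on how the arrays are scaled: with equal array medians, which moves the median of all genes from -0.07 to 0.12, it was 10 above and 3 below, and the members' median was 0.061. With 1 cerebellum array the spread comes from the tumours alone, and an exact permutation test over the 5 arrays could not give a p below 0.2.

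**Figure D2:**
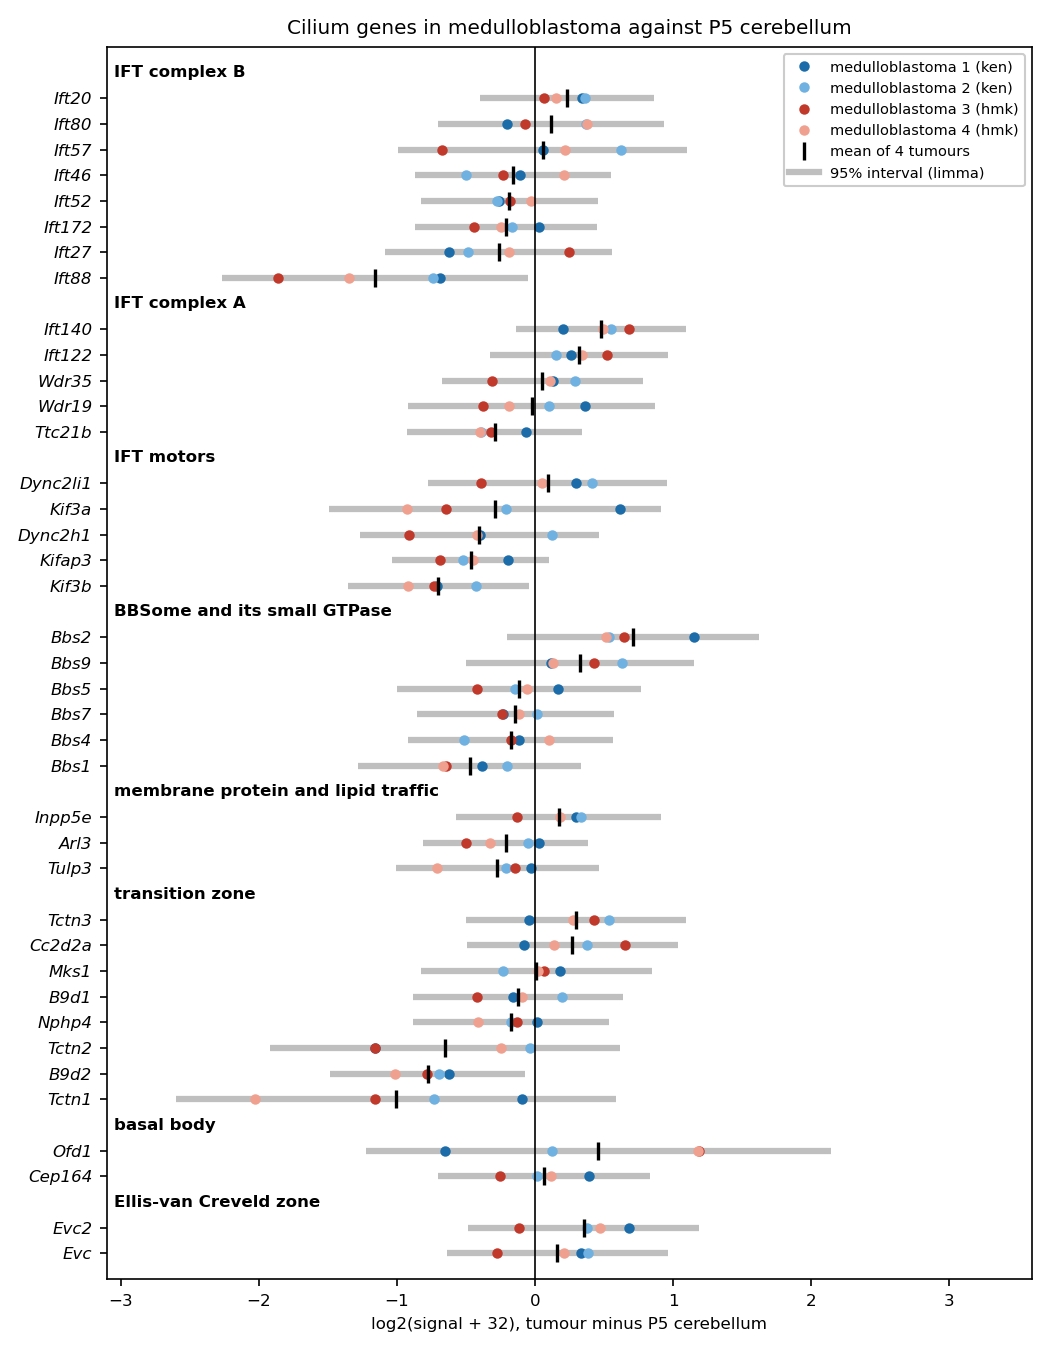
Difference of each medulloblastoma from the P5 cerebellum (points, log2(signal + 32)) for the 39 cilium genes tested, grouped by role, with the mean of the 4 tumours (black tick) and limma's 95% interval (grey bar). Intervals lie wholly below 0 for Ift88, Kif3b and B9d2, before any adjustment for the number of genes tested, and for no member wholly above 0.

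Among the 8 complex B genes, which encode the outward trains, Ift88 stood furthest below the cerebellum. Its signal was 475, 456, 193 and 288 in medulloblastomas 1 to 4 and 784 in the cerebellum. Every tumour was lower, the hmk tumours most, and the groups did not overlap. The difference was -1.16 ± 0.48 (SE; limma, adjusted p = 0.314). Within the hmk arrays alone it was -1.60 with an adjusted p of 0.0273 (limma), in a fit whose spread rests on those 2 tumours and which calls 11.9% of all genes. The ken tumours differed from the same cerebellum by -0.71 (limma, adjusted p = 0.480).

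At their brightest probe sets the other complex B genes were close to the cerebellum, with differences from -0.26 (Ift27) to 0.23 (Ift20). Ift172, Ift46 and Ift80 had -0.21, -0.16 and 0.12, each with tumours on both sides of the cerebellum. A second probe set of Ift80, nearly as bright, read 227, 485, 682 and 481 against 230, a difference of 0.84. Ift20, whose protein also sits at the Golgi and sorts membrane cargo for the cilium, read 772, 785, 633 and 672 against 602, above in every tumour by a small margin (0.23 ± 0.27, adjusted p = 0.712 by limma). Ift52, a core subunit, read 526, 519, 557 and 622 against 636 and varied least among the tumours of all members (SD 0.11 on the log2 scale). Ift27, a small GTPase of the complex that helps the BBSome leave the cilium, read 735, 810, 1370 and 1006 against 1149. Both ken tumours were below both hmk tumours there, and its 2 other probe sets also differed in the negative direction, by -0.33 and -0.42. Ift57 spread most after Ift88, at 612, 917, 355 and 686 against 585, on both sides of the cerebellum. A dimmer probe set of Ift57 lay below the cerebellum in every tumour (71.6, 200, 155 and 141 against 297).

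Among complex A genes, needed for the return trip and for bringing Hedgehog-related receptors into the cilium, Ift140 and Ift122 were on the higher side. The signal of Ift140 was 1120, 1432, 1572 and 1376 in medulloblastomas 1 to 4 and 969 in the cerebellum, without overlap. Its difference of 0.48 ± 0.27 was not called (limma, adjusted p = 0.421). Ift122 read 663, 612, 803 and 704 against 549 (0.32 ± 0.28), and its other probe set was also above in each tumour, by 0.56. Wdr35 and Wdr19 had differences of 0.05 and -0.02 with tumours on both sides. Their dimmer probe sets had differences of 0.35 and -0.42, and that of Wdr19 was below the cerebellum in every tumour. Ttc21b was below the cerebellum in each tumour, at 808, 639, 674 and 636 against 847 (-0.29 ± 0.28), whereas its dimmer probe set had a difference of 0.22.

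The motor genes had the lowest median of the roles with at least 3 members tested, -0.40 over 5 genes, and none was called. Kif3b, a motor subunit of kinesin-II, read 739, 908, 727 and 634 against 1231, lower in every tumour (-0.70 ± 0.28; limma, adjusted p = 0.306). Its 3 other probe sets had differences of -0.34, -0.38 and -0.21, the first pair below in every tumour, and with equal array medians another of them became the brightest and the difference was -0.15. Kifap3, the accessory subunit that links kinesin-II to cargo, read 3358, 2678, 2379 and 2818 against 3855 (-0.46 ± 0.25). Again no tumour reached the cerebellum.

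Kif3a, the other motor subunit, depended on the tumour and on the probe set. The brightest probe set read 1657, 918, 673 and 546 against 1068, above the cerebellum in medulloblastoma 1 alone (-0.29 ± 0.52). A second read 1392, 879, 699 and 633 against 1039, in the same order. Another read 1079, 990, 630 and 558 against 1210, and the fourth 801, 1264, 983 and 758 against 614, above in every tumour. With all 4 averaged the difference was -0.15. For the return motor, the heavy chain gene Dync2h1 read 870, 1263, 600 and 857 against 1157 (-0.40 ± 0.38) and the light intermediate chain gene Dync2li1 529, 575, 316 and 442 against 424 (0.09 ± 0.38). Medulloblastoma 3 was lowest for both.

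BBSome genes encode a coat that moves receptors out of the cilium, and its members did not shift together, with differences from -0.47 to 0.71 over 6 genes. Bbs2 had the highest difference of all 39 members. Its signal was 441, 276, 300 and 271 in medulloblastomas 1 to 4 and 181 in the cerebellum, higher in every tumour and most in medulloblastoma 1 (0.71 ± 0.40; limma, adjusted p = 0.423). Bbs9 read 302, 444, 382 and 304 against 275 (0.33 ± 0.36), also without overlap. Bbs1 lay on the other side, at 333, 384, 274 and 268 against 445 (-0.47 ± 0.35). Bbs4, Bbs5 and Bbs7 were between -0.18 and -0.11, each with 1 tumour above the cerebellum. For Bbs4 the 3 other probe sets had differences of 0.10, 0.01 and -0.72.

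At their brightest probe sets, genes for traffic of membrane proteins and lipids had mean differences from -0.27 to 0.17. Arl3, a small GTPase that releases lipid-modified cargo inside the cilium, read 4126, 3894, 2853 and 3221 against 4042 (-0.21 ± 0.26), with both hmk tumours below both ken tumours. Tulp3, an adaptor that brings receptors in with complex A, read 980, 858, 898 and 599 against 997 (-0.27 ± 0.32), lowest in medulloblastoma 4. Dimmer probe sets of Tulp3 had differences of -0.39 and -0.84, each with 1 tumour above the cerebellum. Inpp5e, a phosphoinositide phosphatase that sets the lipid makeup of the ciliary membrane, read 482, 496, 351 and 442 against 387 (0.17 ± 0.32). Medulloblastoma 3 alone was below. The dimmer probe set of Inpp5e had a difference of -0.18, with tumours on both sides.

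At the transition zone the largest differences belonged to B9d2, Tctn1 and Tctn2, all negative and none called. B9d2, a B9 domain protein of the gate, read 456, 431, 403 and 339 in medulloblastomas 1 to 4 and 717 in the cerebellum. Its tumour values were close together (SD 0.17) and all below, giving -0.78 ± 0.31 with an adjusted p of 0.298, the lowest adjusted p of any member (limma). It has 1 probe set, and the difference was between -0.90 and -0.59 under the 16 other settings tried. Tctn1, a tectonic that is needed for Hedgehog responses in mouse embryos, read 332, 202, 142 and 63.1 against 356. Medulloblastoma 1 was near the cerebellum and medulloblastoma 4 far below it, so the difference of -1.004 ± 0.69 had a 95% interval from -2.60 to 0.59. Tctn2 read 137, 335, 137 and 287 against 345 (-0.65 ± 0.55), with medulloblastomas 1 and 3 low.

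The remaining gate genes lay on both sides. Tctn3 read 314, 486, 450 and 400 against 325 (0.30 ± 0.35) at its brightest probe set, but was -0.34 with all 3 averaged, the others being dim. Cc2d2a read 604, 840, 1027 and 708 against 640 (0.27 ± 0.33). B9d1, Mks1 and Nphp4 had differences of -0.12, 0.01 and -0.17, each with tumours on both sides. Tmem67 and Cep290, too dim to be tested, read 59.0, 144, 137 and 69.5 against 39.3, and 127, 97.6, 89.7 and 101 against 75.3; both were above in every tumour at signals near the filter.

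Ofd1, a protein of centrioles and their satellites, varied most among the tumours of all members (SD 0.89 on the log2 scale). Its signal was 82.4 and 164 in the ken tumours, 377 and 375 in the hmk tumours and 148 in the cerebellum. Both hmk tumours were above the cerebellum, by 1.19 and 1.18, and medulloblastoma 1 was below it by 0.65. Over the 4 tumours the difference was 0.46 ± 0.73 (limma, adjusted p = 0.791), and it was -0.27 for the ken tumours alone. Cep164, of the appendages that dock the basal body to the membrane, read 613, 466, 381 and 502 against 460 (0.07 ± 0.33).

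Evc and Evc2 encode partners that bind active Smoothened in a zone just above the transition zone. Evc2 read 630, 503, 349 and 539 against 381 (0.35 ± 0.36) and Evc read 563, 583, 358 and 515 against 440 (0.16 ± 0.35). Both genes were above the cerebellum in medulloblastomas 1, 2 and 4 and below it in medulloblastoma 3. A dimmer probe set of Evc was above in every tumour, at 239, 159, 116 and 202 against 77.0. Over the 18 members with several probe sets, 17 of 23 further probe sets that passed the filter had the sign of the brightest and 6 the opposite one.

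**Figure D3:**
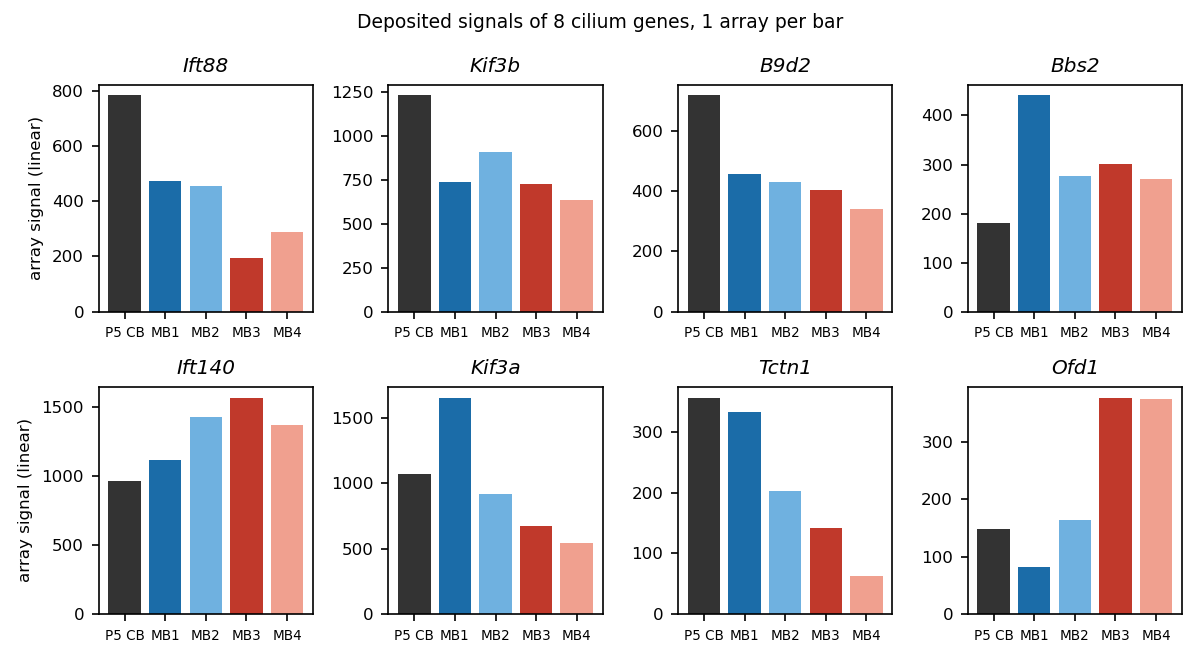
Deposited signal (linear scale, 1 array per bar, so no error bars) of 8 cilium genes in the P5 cerebellum (P5 CB) and medulloblastomas 1 to 4 (MB1 to MB4). Ift88, Kif3b and B9d2 are below the cerebellum in each tumour, Bbs2 and Ift140 above it, and Kif3a, Tctn1 and Ofd1 separate the ken tumours (blue) from the hmk tumours (red).

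Part of the cilium genes separated the tumours by title prefix, with lower signals in the hmk tumours more often than higher ones. Both hmk tumours were below both ken tumours for 15 of 39 members (38.5%), as were 23.3% of all genes, and above both for 4 members (10.3%), as were 21.5% of all genes. The median of hmk minus ken was -0.25 over the members and -0.0045 over all genes on the log2 scale, as a description of 2 tumours against 2. Tctn1 (-1.18), Kif3a (-0.99) and Ift88 (-0.89) were the furthest on the lower side, and Ofd1 (1.45) and Ift27 (0.59) on the higher side. Motor genes had the lowest median of hmk minus ken (-0.52), with 4 of 5 lower without overlap at their brightest probe sets. The pairs overlapped at every other probe set of Kif3b. They also overlapped at the dimmest of Kif3a, with 801 and 1264 in the ken tumours and 983 and 758 in the hmk tumours. The remaining Kif3a probe sets kept the separation. Against the cerebellum, medulloblastoma 3 alone stood apart, with the lowest members' median, -0.25. Medulloblastoma 4, also hmk, had -0.03, near the -0.02 and 0.02 of medulloblastomas 1 and 2.

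Markers of mature neurons moved with the same prefix. The summed signal of 6 Purkinje cell markers was 28270 and 16270 in the ken tumours, 6086 and 8983 in the hmk tumours and 38540 in the cerebellum. For 8 markers of mature granule neurons it was 52120 and 29390 in the ken tumours, 21780 and 24390 in the hmk tumours and 28460 in the cerebellum. Single markers of this list went both ways against the cerebellum. In every tumour 4 were above it and 1 below, beside 25.1% and 30.8% of all genes. Gabra6, Cbln3 and Grin2c differed by 3.99 ± 0.63, 3.11 ± 0.69 and 2.19 ± 0.88, and Neurod1 by -0.81 ± 0.23. Beside these neuron markers, 9 choroid plexus markers summed to 34960 and 17230 against 5190 and 5847, with 14480 in the cerebellum. Most of this sum was Ttr. Its signal was 31466.5 and 14592.3 in the ken tumours, 3808.02 and 4072.58 in the hmk tumours and 11956.3 in the cerebellum. Of the 7 choroid plexus markers that passed the filter, both hmk tumours were below both ken tumours for 3, Ttr among them. They were above both for 1. Of all genes, 23.3% were below and 21.5% above in this way. All markers of these 3 lists had a signal of at least 100 on some array. Their part in the differences of cilium genes was not tested, and in bulk RNA fewer cells of a type cannot be told apart from less RNA per cell.

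**Figure D4:**
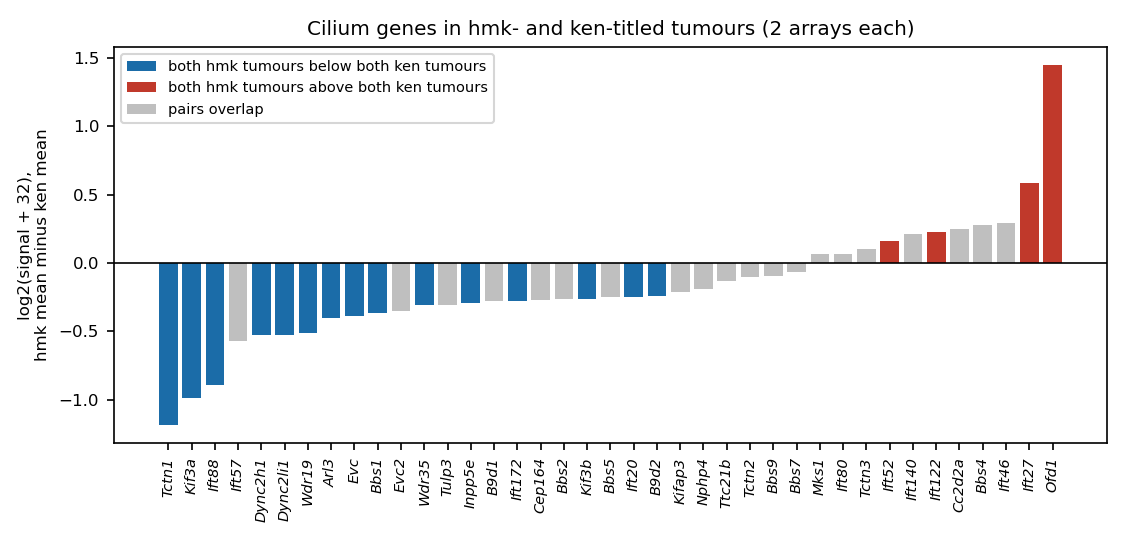
Mean of the hmk-titled minus mean of the ken-titled medulloblastomas (2 arrays each, log2(signal + 32)) for each of the 39 cilium genes. Blue bars mark the 15 genes with both hmk tumours below both ken tumours, red bars the 4 with both above, and grey bars the 20 whose pairs overlap.

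Other genes of the cilium, from lists of related genes, gave 0 calls among 98 list entries tested over 7 lists, which share 1 gene (limma; 10 higher and 5 lower at an unadjusted p under 0.05, which is 15.3% of the entries against 15.2% of all genes). Over these entries, all 4 tumours were above the cerebellum for 32.7% and below it for 28.6%, against 25.1% and 30.8% of all genes. For 21 further transport and BBSome genes the median was 0.20, with 8 above the cerebellum in every tumour (38.1%) and 4 below (19%), beside 25.1% and 30.8% of all genes. Mkks, a chaperonin-like protein for BBSome assembly, differed by 0.71 ± 0.27 and the kinesin gene Kif17 by -0.63 ± 0.31. Further transition zone genes had a median of -0.09 over 17 genes. Rpgrip1, known from photoreceptor cilia, read 307, 2486, 5666 and 337 in medulloblastomas 1 to 4 against 6305 (-2.45 ± 1.41), with medulloblastomas 1 and 4 far below the others. Its 3 other probe sets were dim, with differences of 1.17, -1.79 and -0.05. Tmem17, of the same gate, differed by -1.08 ± 0.85, with medulloblastoma 2 lowest at 17.2 against 254 in the cerebellum. On the other side, Tmem237 and Tmem107 were above the cerebellum in every tumour, by 0.97 ± 0.33 and 0.75 ± 0.31.

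The median difference of 24 centriole and basal body genes was 0.26, with 11 above the cerebellum in every tumour (45.8%) and 6 below (25%), beside 25.1% and 30.8% of all genes. Mark4 and Cby1 were the furthest below, at -1.01 ± 0.31 and -0.85 ± 0.33. Cep97, which restrains ciliogenesis by capping centrioles, read 968, 880, 828 and 846 against 396 (1.09 ± 0.26; limma, adjusted p = 0.125). Ssx2ip, a centriolar satellite protein, differed by 1.07 ± 0.25 with the same adjusted p. Genes linked to cilium disassembly had a median of 0.44 over 8 genes, with 4 above the cerebellum in every tumour and 3 below. The kinesin gene Kif24 differed by 0.87 ± 0.32 and the mitotic kinase gene Plk1 by 0.73 ± 0.28. Pifo differed by -1.63 ± 0.96, from dim signals of 94.5, 38.3, 7.10 and 170 in medulloblastomas 1 to 4 against 252. Proliferation genes, many of which peak in dividing cells as Plk1 does, were above the cerebellum in every tumour for 10 of 11 genes with a median of 0.72, and their summed signal was 49470 to 66880 in the tumours against 36670. No proliferation gene was called, and their part in these lists was not tested.

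Among ciliogenesis transcription factors Rfx4, which is expressed in radial glia and their progeny, read 8.14, 143, 205 and 53.4 against 586 (-2.50 ± 0.94; limma, adjusted p = 0.280). Its second probe set was dim (0.03). Rfx2 differed by 1.03 ± 0.67, from signals between 67.0 and 244 in the tumours against 62.7. The list had a median of -0.07 over 8 genes. Markers of astrocytes and Bergmann glia had a median of -1.45, with 6 of 10 below the cerebellum in every tumour, 3 above, 2 called lower (Aldh1l1 and Aqp4) and a summed signal of 30540 to 37260 against 72780; their part in the Rfx4 difference was not tested. Of all genes, 30.8% were below the cerebellum in every tumour and 25.1% above. Receptors and enzymes of the ciliary membrane had a median of -0.27 over 8 genes. Mchr1, a receptor of neuronal cilia, differed by -0.97 ± 0.51. Htr6 differed by -0.53 ± 0.73, with medulloblastoma 1 lowest at 35.7 against 181 in the cerebellum.

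Over 12 genes for Hedgehog pathway proteins that pass through the cilium the median was -0.12, with 3 above the cerebellum in every tumour and 3 below (25% each way), close to the 25.1% and 30.8% of all genes. The transcription factor gene Gli3, which acts largely as a repressor, read 95.7, 219, 139 and 323 against 488 (-1.31 ± 0.58; limma, adjusted p = 0.340), and Gli1 differed by 0.59 ± 0.29. Ptch1, of the same list, read 692, 451, 2811 and 2352 against 2538 (-1.05 ± 0.89), above the cerebellum in medulloblastoma 3 alone. Both ken tumours were far below both hmk tumours for Ptch1. Motile cilia genes, which mark ependymal and other multiciliated cells, were dim: 12 of 31 passed the filter and 13 had a signal under 100 on every array. The median of the 12 was -0.06, with 2 above the cerebellum in every tumour, 4 below and 0 called (limma; 0 higher and 1 lower at an unadjusted p under 0.05). Foxj1, the master regulator of motile cilia, read 139, 131, 160 and 122 against 285 (-0.90 ± 0.46), and the dynein genes Dnah9 and Dynlrb2 differed by -1.43 ± 0.54 and -1.03 ± 0.51. On the other side, Tctex1d4 differed by 0.75 ± 0.82 with 1 tumour below, and Armc4 and Tppp3, above in every tumour, by 0.66 ± 0.55 and 0.32 ± 0.34. The summed signal of the motile list was 3041 to 4212 in the tumours and 4304 in the cerebellum.

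**Figure D5:**
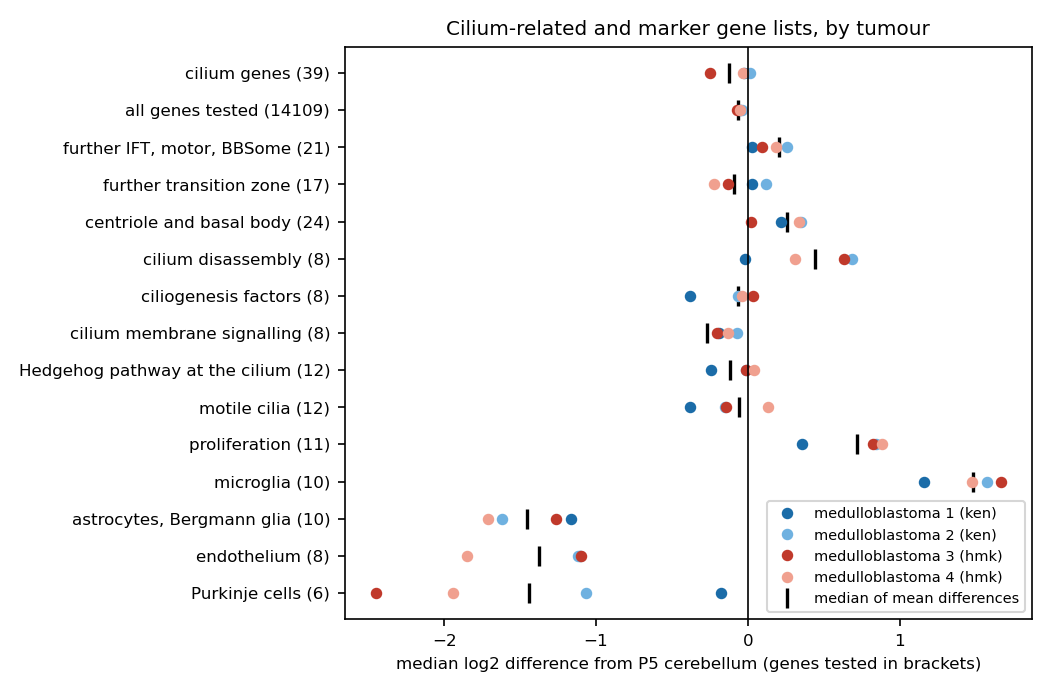
Median log2 difference from the P5 cerebellum for lists of cilium-related genes and cell markers, by tumour (points) and over the mean of the 4 tumours (black tick), with the number of genes tested in brackets. The black ticks of cilium lists lie between -0.27 and 0.44 and those of microglia, astrocyte, endothelial and Purkinje cell markers further from 0, but single tumours vary: the Purkinje list is at -0.17 in medulloblastoma 1 and the disassembly list at 0.69 in medulloblastoma 2.

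The arrays as a whole gave 44 genes higher and 25 lower in the tumours. Atoh1, which defines granule neuron precursors, read 4178, 7341, 9505 and 7872 against 963 and was higher by 2.81 ± 0.40 (limma, adjusted p = 0.0336). It was the 1 gene called among 10 precursor markers, which had a median of 0.78, with 6 above the cerebellum in every tumour and 2 below, Pax6 (-1.02 ± 0.34) and Zic1 (-0.40 ± 0.21). All 10 microglia and macrophage markers were above the cerebellum in every tumour, with 3 called and a summed signal of 17770 to 19820 against 6866. All 8 endothelial markers were below it, at 2037 to 2973 against 6290, with 0 called (limma; 5 at an unadjusted p under 0.05). Of all genes, 25.1% were above the cerebellum in every tumour and 30.8% below. Gabra6 (3.99 ± 0.63) and the oligodendrocyte marker Mobp (3.71 ± 0.58) were also among the genes called higher. Of 9 oligodendrocyte markers tested, 4 were above in every tumour and 2 below. Whether these shifts bear on any cilium gene was not tested.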

How the data were processed

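Deposited values were array intensities on a linear scale, 1 per probe set and array, which the authors made with MAS5, per the submitters' processing notes, except that these notes name no tool for medulloblastoma 3. Every array had a mean intensity of 500.002 once the top and bottom 2% of its probe sets were dropped. The number of arrays limits the precision. Per the labels, medulloblastoma 4 was extracted by the array maker's standard procedure and the other RNA with Trizol.

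Replicates were numbered in record order, which pairs nothing. Nothing states that the tumours came from separate animals, so p-values measure only the spread between these samples. Of 45101 probe sets, 64 were controls, 34945 had 1 gene symbol, 932 had several and were not used, and 9160 were unnamed here. Intensities were kept as deposited and log2(signal + 32) was taken, which understates changes of dim genes. The 14109 genes whose signal averaged 100 or more were fitted with limma 3.58.1 in R 4.3.3 (lmFit, eBayes with a variance trend, 5.02 prior degrees of freedom), two-sided, with Benjamini-Hochberg adjustment over all genes tested. The procedure was tested on simulated data with the tumours' spread on every array. There it called 4.2% of changes of 1 on the log2 scale and 43.4% of changes of 2. Promoters came from RefSeq tables (GRCm38.p6).

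Members and lists were chosen with earlier results of these data known. Text names all members. From each related list of cilium genes it names genes by a rule (called, otherwise the 2 largest with all 4 tumours on 1 side). Plk1, Mark4, Cby1, Tmem237, Tmem107, Ptch1, Foxj1, Tctex1d4, Armc4, Tppp3 and the cell markers were further examples chosen after their values were seen. List symbols were matched also through RefSeq synonyms. Alternatives were other scalings, constants, filters, probe set choices, no variance trend, a threshold of 0.1, only the hmk arrays, and omission of each tumour in turn; a fit of the ken tumours against the cerebellum was chosen after seeing the data.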

Additional observations from a re-analysis of the deposited data

How the results depend on the processing

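No paired analysis was possible because there is 1 cerebellum array. With 1 cerebellum, the array is assumed to vary like the tumours. Called cilium genes numbered 0 in each direction in all settings except the hmk arrays alone. There Ift88 (-1.60) alone was called, as lower, in a fit that calls 11.9% of all genes. The members' median moved to 0.061 with equal medians, and was -0.14 to -0.02 when single tumours were left out. Members above the cerebellum in every tumour numbered 8 after quantile normalization and 10 with equal medians. They numbered 9 in the hmk arrays alone and 13 for the ken tumours (an added setting). Members below numbered 3 with equal medians and 19 in the hmk arrays alone. Fewer tumours have to lie on 1 side in the hmk or ken settings. The shares of all genes on 1 side under these settings are not reported here. The cause of the changes under scaling was not tested. Leaving out single tumours gave 5 to 12 above and 11 to 15 below. Signs of single members turned in 33 of 624 values, with 0 of these called. Over all genes, the calls were 44 higher and 25 lower, 78 and 20 with equal medians, 0 and 0 without a variance trend (908 and 1099 at an unadjusted p under 0.05) and 0 and 0 when medulloblastoma 4 was left out (806 and 896). Leaving out medulloblastoma 1 gave 448 higher and 383 lower, leaving out medulloblastoma 2 gave 2 and 0, and leaving out medulloblastoma 3 gave 10 and 6.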
